A study of Bos taurus with 6 samples.

Results

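The miRNAs described here are those of the imprinted DLK1-DIO3 domain, measured in extracellular vesicles (EVs) released by bovine granulosa cells. They were chosen by name alone. An identifier was taken when its miRNA number, with letters and arm ignored, was one of 44 numbers that belong to this domain. Of the 44 numbers, 27 had an identifier in the data, which gave 35 of the 512 miRNA identifiers. All 35 matched a RefSeq gene of the ARS-UCD2.0 assembly, and the 33 genes behind them lay on 1 chromosome, bovine chromosome 21, with DLK1 and MEG3 on one side and MEG9 and DIO3 on the other. Between the outermost of them the annotation held 58 miRNA genes, of which 34 had an identifier in the data.

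The DLK1-DIO3 domain is one of the large imprinted regions of the mammalian genome. Its protein-coding genes DLK1, RTL1 and DIO3 are expressed from the paternal chromosome, while its noncoding RNAs, among them MEG3, MEG8 and a long series of miRNAs, are expressed from the maternal chromosome and are thought to be cut from long shared transcripts. The miRNAs are best known from placenta, brain, muscle and fetal tissues, and those on the strand opposite RTL1 can direct cleavage of the RTL1 transcript. In the annotation MIR127, MIR433 and MIR432 lay within RTL1, MIR432 and MIR370 lay within MEG8, and the remaining genes of the long MIR379 to MIR656 row followed.

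The granulosa cells came from small antral follicles of ovaries collected at a slaughterhouse. After a first culture at 37 °C in DMEM/F-12 with exosome-depleted fetal bovine serum, cells either stayed at 37 °C (control-EVs) or were moved to 42 °C (HS-EVs) for 24 h, and EVs of the spent medium were precipitated with ExoQuick-TC. Small RNA of 3 libraries in each group was sequenced, and the series' design names them biological replicates. The labels do not say how many animals each replicate came from, the serum was of bovine origin like the cells, and libraries of the cells themselves were not used here.

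The deposited values are normalized read counts, from which whole reads were recovered. The libraries held 274434 to 587850 reads in control-EVs and 506670 to 2360980 reads in HS-EVs. A single identifier, bta-miR-1246, took 59.9% to 84.6% of the reads in control-EVs and 75.6% to 98.6% in HS-EVs. HS-EVs replicate 1 stood apart, with 34141 reads on all other miRNAs against 73569 to 235634 in the other 5 libraries, and each of its reads was worth 4.11 normalized counts against 0.697 to 1.98 elsewhere. The cluster's share of reads and the log2 fold changes printed for single members are therefore also given without it. The granulosa cell list (bta-miR-202, bta-miR-21, bta-miR-132, bta-miR-212, bta-miR-182, bta-miR-183 and bta-miR-96) was found with 7 of its 7 numbers, and its summed level ranged from 8310 to 16630 normalized counts in control-EVs and from 8456 to 15260 in HS-EVs, with 5 of its 8 identifiers at a log2 fold change below 0. bta-miR-21-5p made up most of that sum (6564 of 8310 in control-EVs replicate 1 and 13660 of 15260 in HS-EVs replicate 2). Its log2 fold change was 0.12, against -0.33 for bta-miR-202. In replicates 1, 2 and 3, bta-miR-202 had 1672, 1965 and 1879 normalized counts in control-EVs and 2087, 1473 and 1015 in HS-EVs. A sequenced vesicle pool shows relative abundance only, so that fewer vesicles of one kind and less RNA per vesicle cannot be told apart.

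The cluster was a small part of the EV miRNAs. Its 35 identifiers held 1341 reads in all, with 159, 598 and 215 in the control-EVs libraries (here and below in the order of replicates 1, 2 and 3) against 77, 176 and 116 in the HS-EVs libraries. Of the reads other than bta-miR-1246, the cluster took 0.208% (95% Wilson interval 0.178% to 0.242%), 0.254% (0.234% to 0.275%) and 0.292% (0.256% to 0.334%) in control-EVs. In HS-EVs it took 0.226% (0.180% to 0.282%), 0.143% (0.123% to 0.165%) and 0.134% (0.112% to 0.160%). HS-EVs replicates 2 and 3 were thus below every control library, while HS-EVs replicate 1 lay within the control range and the groups overlapped. Control-EVs averaged 0.251% ± 0.0424 and HS-EVs 0.167% ± 0.0506 (SD, n = 3 each), a difference of -0.0839 percentage points, and without HS-EVs replicate 1 the HS-EVs mean was 0.138%. On the normalized scale the cluster summed to 292, 417 and 425 in control-EVs and to 316, 194 and 189 in HS-EVs, with means of 378 ± 74.6 and 233 ± 72.2 (SD, n = 3). Wilson intervals cover counting error only.

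**Figure D1:**
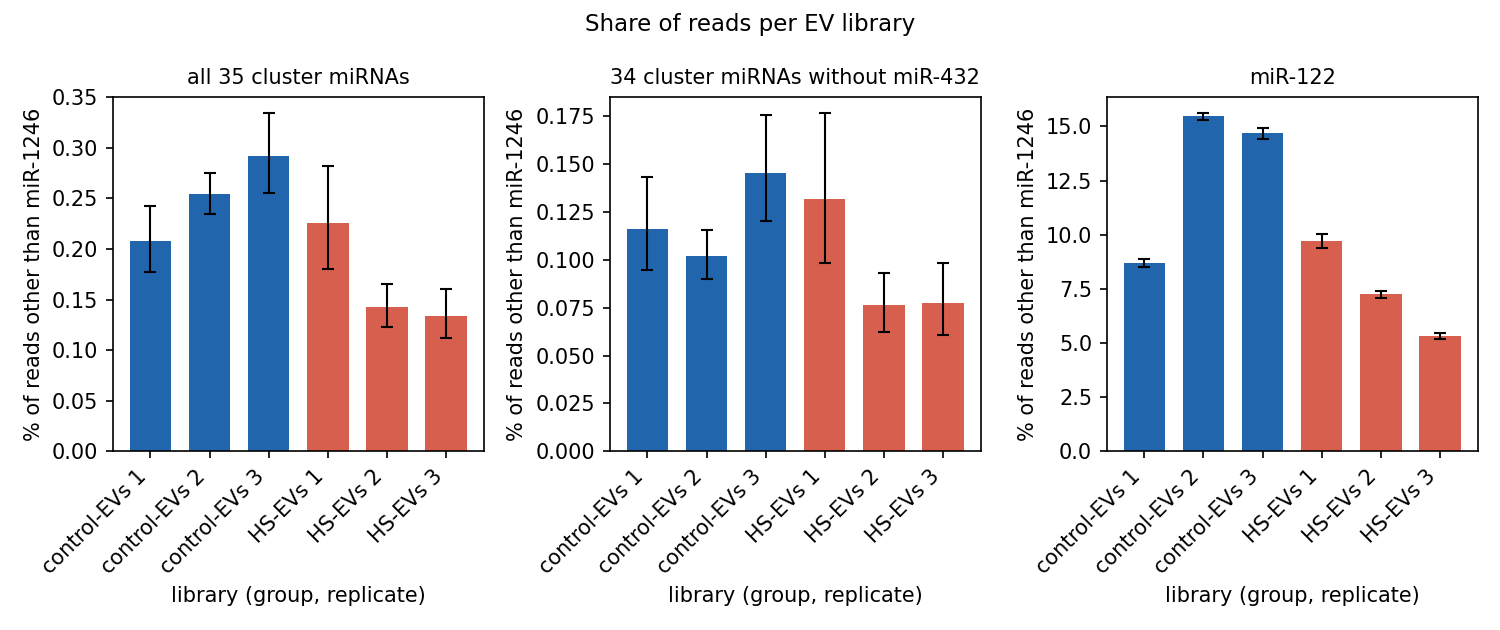
Share of the reads other than bta-miR-1246 in each EV library, in percent, for the 35 cluster miRNAs, for the 34 without bta-miR-432, and for bta-miR-122 (control-EVs in blue, HS-EVs in red, bars from 0, error bars are 95% Wilson intervals). HS-EVs replicates 2 and 3 have the 2 lowest shares in each panel, and HS-EVs replicate 1 lies inside the control range.

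Much of the cluster's signal was 1 miRNA. bta-miR-432 held 52.1% of all cluster reads, between 44.0% and 59.9% in control-EVs and between 41.6% and 46.6% in HS-EVs. Without it the cluster's share of the reads other than bta-miR-1246 was 0.116%, 0.102% and 0.145% in control-EVs and 0.132%, 0.0761% and 0.0773% in HS-EVs, so that the same pair of HS-EVs libraries stayed lowest. The difference of the group means shrank to -0.0261 percentage points. Together, the 8 members with a mean of 10 or more normalized counts held 89.3% of the cluster's reads.

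Marker lists of other sources were set beside the cluster, and no marker passed the test. bta-miR-122, the abundant miRNA of hepatocytes that is also found in serum, took 8.70%, 15.5% and 14.7% of the reads other than bta-miR-1246 in control-EVs and 9.72%, 7.25% and 5.32% in HS-EVs. The cluster held 2.39, 1.64 and 1.99 reads for each 100 reads of bta-miR-122 in control-EVs and 2.32, 1.97 and 2.51 in HS-EVs, and these ratios, chosen after the values had been seen, overlapped between the groups. The liver and serum list (bta-miR-122, bta-miR-192, bta-miR-194 and bta-miR-885) was found with 4 of 4 numbers and summed to between 12320 and 25530 normalized counts in control-EVs and between 7610 and 13720 in HS-EVs, with 4 of 4 identifiers below 0. The red blood cell list (bta-miR-451, bta-miR-486 and bta-miR-144), found with 3 of 3, summed to between 561 and 1283 in control-EVs and between 320.1 and 822 in HS-EVs, with 3 of 3 below 0. bta-miR-122 made up most of the liver and serum sum (12230 of 12320 in control-EVs replicate 1). The white blood cell and platelet list (bta-miR-142, bta-miR-223 and bta-miR-150), found with 3 of 3, summed to between 221 and 339.6 in control-EVs and between 269 and 362 in HS-EVs, with 2 of 4 identifiers below 0. The stromal, endothelial and smooth muscle list (bta-miR-143, bta-miR-145, bta-miR-126, bta-miR-199 and bta-miR-214), found with 5 of 5, summed to between 1755 and 1970.0 and between 1339 and 2239, with 3 of 9 identifiers below 0. The striated muscle list (bta-miR-1, bta-miR-133, bta-miR-206 and bta-miR-208), found with 4 of 4, summed to between 543 and 990.2 and between 236 and 1598, with 5 of 6 below 0. No marker of these lists was at 0 in all 6 libraries, and each list overlapped between the groups. The part of such RNA in the cluster's values was not tested.

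The rule asked for a joint shift between HS-EVs and control-EVs, which is described here by counts and medians beside the same over all miRNAs. No cluster miRNA passed the study's threshold, which asks for a change of at least 1 on the log2 scale in either direction and an adjusted p-value up to 0.3, by limma with Benjamini-Hochberg adjustment over all 512 miRNAs. The same held for all 512 (0% called), where the smallest adjusted p-value was 0.408. On the recovered reads, edgeR's quasi-likelihood fit called 0 cluster miRNAs and 3 of all miRNAs, and DESeq2 called 0 and 0. At an unadjusted limma p-value of 0.05 or less, 4 of the 35 were lower in HS-EVs, against 11 of all 512 (2.15%), and 0 were higher, against 14 of 512 (2.73%). edgeR put 2 cluster miRNAs at that level, bta-miR-323 and bta-miR-432, both lower in HS-EVs, where 6 of all 512 were lower and 20 higher. DESeq2 put bta-miR-432 alone there, also lower, beside 4 of all 512 lower and 6 higher. The 4 in the limma fit were bta-miR-323, bta-miR-323b-3p, bta-miR-381 and bta-miR-493.

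Directions were counted in the same way. A log2 fold change below 0 was found for 22 of the 35 cluster miRNAs (62.9%), against 256 of 512 (50%). The median log2 fold change was -0.25 in the cluster and 0.01 over all miRNAs, a gap of -0.26. Without HS-EVs replicate 1, 24 of the 35 and 247 of the 512 were below 0 and the gap was -0.405. Of the 8 members with a mean of 10 or more normalized counts, 7 were below 0, with a median of -0.71. Among all miRNAs at that level it was 97 of 196, with a median of 0.02. Of these 8, 5 reached 10 normalized counts in at least 2 libraries of control-EVs but not of HS-EVs. A choice by level can thus favour members that are higher in control-EVs. A log2 fold change of -1 or less was found for 7 cluster miRNAs and 28 of all 512, and one of 1 or more for 0 and 29. Of these 7, bta-miR-323 and bta-miR-376c had no read in HS-EVs. Their fitted values, and those of the others with few reads, depend on the pseudocount. With a pseudocount of 0.5, 5 or 10, the count of cluster miRNAs at -1 or less was 10, 1 or 0 (49, 2 or 1 of all). In 4 cluster miRNAs every HS-EVs library was below every control-EVs library, which was so for 14 of 512 (2.73%), and in 0 was every HS-EVs library above, against 19 of 512 (3.71%). These 4 were bta-miR-323, bta-miR-323b-3p, bta-miR-380-3p and bta-miR-381.

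The gap differed between the HS-EVs libraries. Relative to the mean of the control-EVs, the median of the cluster minus that of all miRNAs was -0.06, -0.01 and 0.08 in the control libraries on the log2 scale. It was -0.02 in HS-EVs replicate 1, -0.25 in replicate 2 and -0.67 in replicate 3. Without HS-EVs replicate 1, 8 cluster miRNAs were lower in every remaining HS-EVs library than in every control library (7.42% of all miRNAs were), and without control-EVs replicate 1 it was 7 (9.57%). The count at an unadjusted limma p-value of 0.05 or less was 6 without HS-EVs replicate 1, against 12 of all miRNAs, with bta-miR-154c, bta-miR-380-3p and bta-miR-432 added and bta-miR-493 lost. Scaled by all reads in place of the authors' factors, the median of all miRNAs moved to -0.79 and that of the cluster to -0.72, a gap of 0.07. In another median, a miRNA with no read in a group was set at 0 if the other group had 3 reads or fewer. Otherwise it was set at the bound that 3 reads over the group allow. These rules applied to 11 of the 35 and 112 of the 512, and the median was 0.0 for the cluster and for all miRNAs. That 0.0 was an assigned value, so it does not measure a shift. Of the 24 cluster miRNAs with reads in both groups, 15 were below 0 and 9 above.

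**Figure D2:**
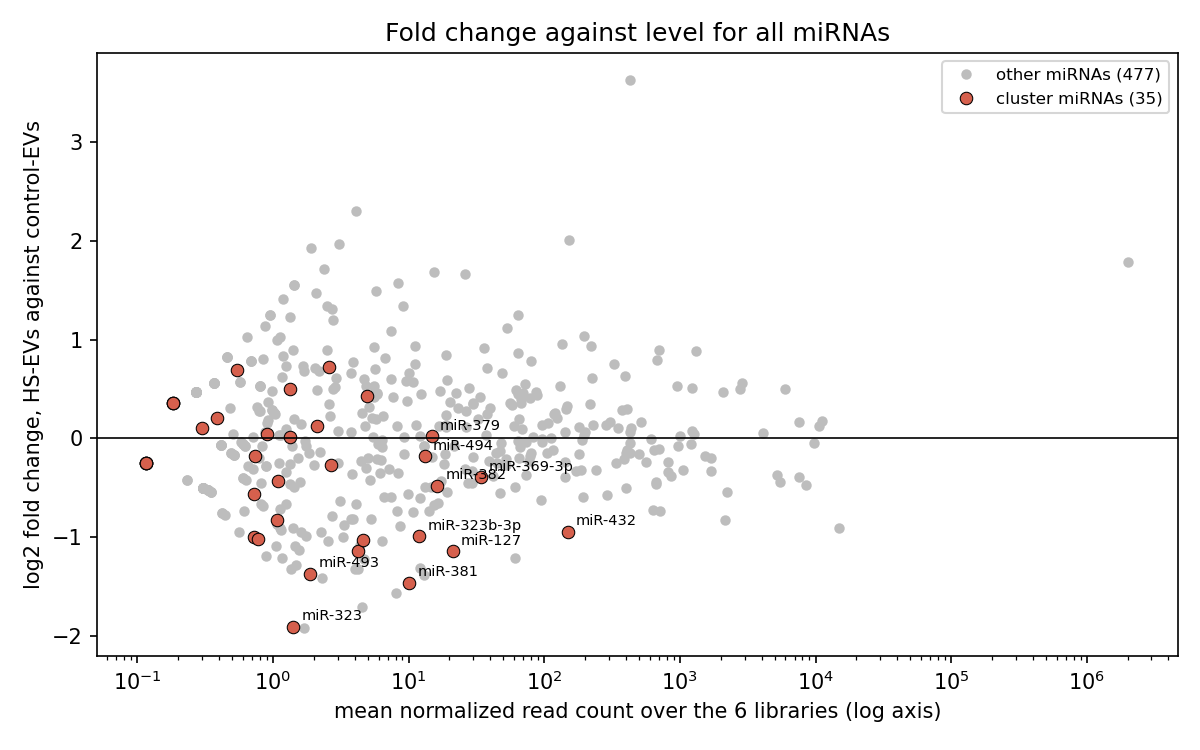
Log2 fold change of HS-EVs against control-EVs (limma on log2 of normalized count plus 1) against the mean normalized read count over the 6 libraries on a log axis, for the 35 cluster miRNAs in red and the 477 other miRNAs in grey. The 24 cluster miRNAs with reads in both groups lie between -1.46 and 0.72. The points of the other 11 depend on the pseudocount, and those of members with few reads do too.

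The miRNAs of the RTL1 end of the domain were bta-miR-493, bta-miR-665, bta-miR-433, bta-miR-127 and bta-miR-432. bta-miR-432, cut from a hairpin within RTL1 and MEG8 in the annotation, was the most abundant of the cluster and ranked 78 of all 512 miRNAs by mean level. Its normalized count was 128, 249.6 and 213 in control-EVs, from 70, 358 and 108 reads, and 132, 90.2 and 79.9 in HS-EVs, from 32, 82 and 49 reads. HS-EVs replicate 1 slightly exceeded control-EVs replicate 1, so that the groups overlapped at that single pair, and the other HS-EVs libraries were lower than all controls. The means were 197 ± 62.2 and 100.5 ± 27.3 (SD, n = 3), with a log2 fold change of -0.94 (SE 0.47, 95% interval -2.0 to 0.11, limma adjusted p = 0.873). On the recovered reads, edgeR put it at -1.0 (quasi-likelihood test, adjusted p = 0.569). Without HS-EVs replicate 1 the limma fit gave -1.15.

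bta-miR-127 lies beside it and is fully complementary to RTL1, whose transcript it can cleave in the placenta. It had a normalized count of 22.03, 24.4 and 33.6 in control-EVs and of 4.11, 9.90 and 32.6 in HS-EVs. The HS-EVs libraries were spread widely, with a single read in replicate 1 and 20 reads in replicate 3, and the highest of them overlapped the controls. The log2 fold change was -1.15 (SE 0.66, limma adjusted p = 0.873), and it moved from -1.87 to -0.51 when a library was left out, the latter without HS-EVs replicate 1. The neighbours were not in a fixed ratio: for each read of bta-miR-432 there were 0.171, 0.0978 and 0.157 reads of bta-miR-127 in control-EVs and 0.0312, 0.110 and 0.408 in HS-EVs.

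bta-miR-493, the first gene of the row after MEG3, had 2 reads in each control library and 0, 2 and 0 reads in HS-EVs. Its normalized count was 3.67, 1.39 and 3.95 in control-EVs and 0, 2.2 and 0 in HS-EVs, so that HS-EVs replicate 2 lay among the controls. The log2 fold change was -1.37 (SE 0.59, limma adjusted p = 0.873), and -1.09 without HS-EVs replicate 1. It rested on 8 reads in all and was -0.488 and -0.278 with pseudocounts of 5 and 10. On the recovered reads its unadjusted p-value was 0.40 by edgeR's quasi-likelihood test and 0.43 by DESeq2. bta-miR-433 and bta-miR-665 each had 1 read in the whole series, in HS-EVs replicate 2. bta-miR-370, which lies within MEG8 as bta-miR-432 does, had 2 reads, both in HS-EVs replicate 3. No fold is given for these 3.

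The MIR379 to MIR656 row held 29 of the 35 identifiers but 536 of the 1341 reads. Its median log2 fold change was -0.25, with 19 below 0 and 10 above, and its summed level was 138, 142 and 174 normalized counts in control-EVs and 181, 89.1 and 73.4 in HS-EVs. HS-EVs replicate 1 was therefore the highest of the 6 libraries for this row, and replicates 2 and 3 were the lowest. The 5 identifiers of the RTL1 end summed to 154, 275 and 251 in control-EVs and to 136, 105 and 113 in HS-EVs, where all HS-EVs libraries were below all controls. bta-miR-432 makes up most of that sum.

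Among the members of this row with 10 or more reads in a library, the groups did not overlap for bta-miR-381, bta-miR-323b-3p and bta-miR-380-3p. bta-miR-381 had a normalized count of 14.7, 11.2 and 19.8 in control-EVs and of 4.11, 7.70 and 3.26 in HS-EVs, from 8, 16 and 10 against 1, 7 and 2 reads. Its means were 15.2 ± 4.32 and 5.02 ± 2.36 (SD, n = 3), and its log2 fold change was -1.46 (SE 0.48, 95% interval -2.53 to -0.39, limma adjusted p = 0.639). bta-miR-381 was lower in HS-EVs under each library left out, between -1.76 and -1.25, and at -1.38 without HS-EVs replicate 1.

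bta-miR-323b-3p, from the gene next to MIR656 at the end of the row, had a normalized count of 14.7, 18.1 and 15.8 in control-EVs and of 8.22, 5.5 and 9.78 in HS-EVs. Both groups were narrow, with means of 16.2 ± 1.76 and 7.83 ± 2.17 (SD, n = 3), although 8, 26 and 8 reads stood against 2, 5 and 6. The log2 fold change was -0.99 (SE 0.44, 95% interval -1.97 to -0.01, limma adjusted p = 0.873), and -1.03 without HS-EVs replicate 1.

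The other 4 well measured members of the row overlapped between the groups. bta-miR-369-3p, known for binding AU-rich elements of the TNF transcript, had 33.0, 34.2 and 45.5 normalized counts in control-EVs and 45.2, 29.7 and 16.3 in HS-EVs. HS-EVs replicate 1 was among the highest and replicates 2 and 3 were the lowest, with a log2 fold change of -0.39 (SE 0.50, limma adjusted p = 0.873). It was -0.73 without HS-EVs replicate 1 and -0.02 without HS-EVs replicate 3, the ends of its range over the libraries left out. bta-miR-382 had 7.34, 25.8 and 23.7 in control-EVs and 24.7, 7.70 and 8.15 in HS-EVs, so that 1 control library was the lowest of all 6 and 1 HS-EVs library was the second highest. The log2 fold change was -0.48 (SE 0.63, limma adjusted p = 0.873). It was -0.99 without HS-EVs replicate 1, and ranged from -1.02 without control-EVs replicate 1 to -0.18 without control-EVs replicate 2.

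bta-miR-379, which opens the row, had 12.9, 10.5 and 17.8 normalized counts in control-EVs and 28.8, 8.80 and 9.78 in HS-EVs. The fitted log2 fold change was 0.03 (SE 0.54, 95% interval -1.19 to 1.24, limma adjusted p = 0.987) and without HS-EVs replicate 1, the highest library, it was -0.49. bta-miR-494 had 12.9, 6.28 and 19.8 in control-EVs and 24.7, 12.1 and 3.26 in HS-EVs, where the highest and the lowest value of all libraries were both HS-EVs. Its log2 fold change was -0.18 (SE 0.69, 95% interval -1.73 to 1.37, limma adjusted p = 0.955), and it was 0.17 without control-EVs replicate 3 and 0.52 without HS-EVs replicate 3 but -0.78 without HS-EVs replicate 1.

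**Figure D3:**
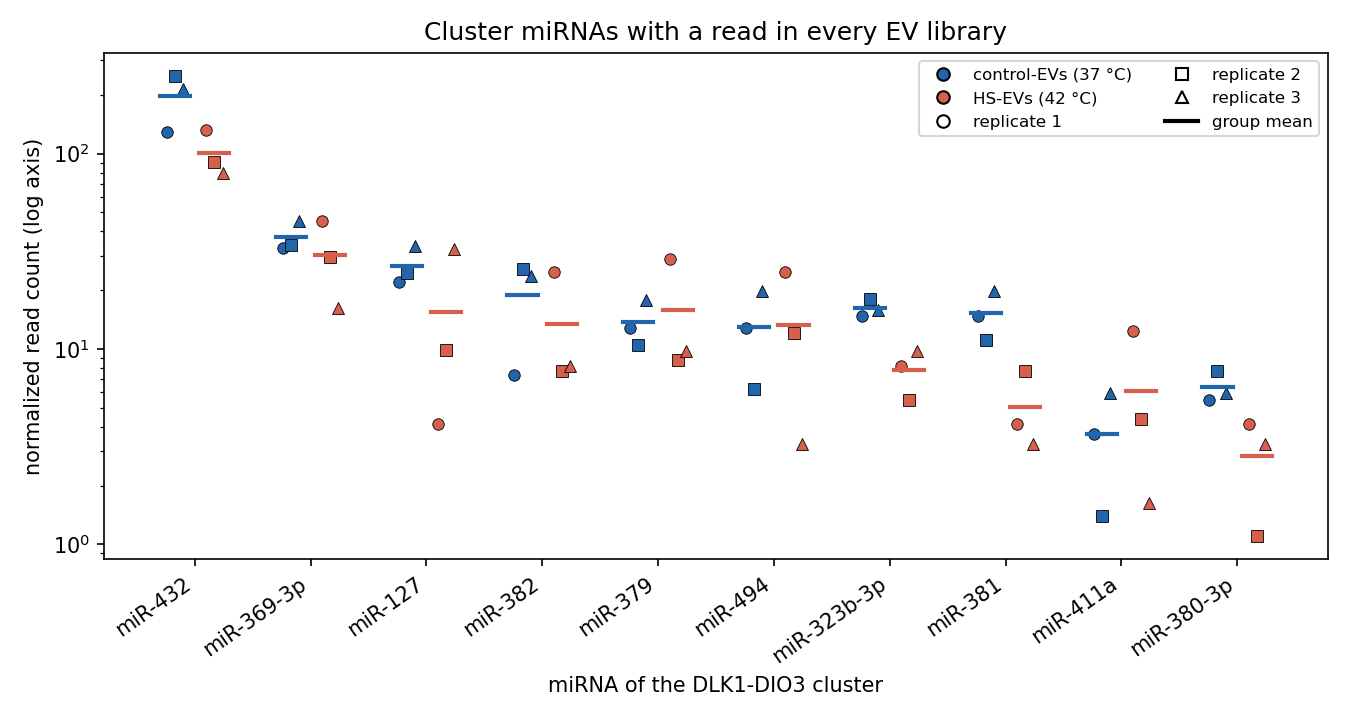
Normalized read count on a log axis of the 10 cluster miRNAs that have a read in every library, for control-EVs (blue) and HS-EVs (red), with a symbol for each replicate and a bar at the group mean. The groups do not overlap for bta-miR-323b-3p, bta-miR-381 and bta-miR-380-3p, while HS-EVs replicate 1 is the highest library for bta-miR-379, bta-miR-494 and bta-miR-411a.

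Lower in the order of abundance, reads were few. bta-miR-380-3p had 3, 11 and 3 reads in control-EVs against 1, 1 and 2 in HS-EVs, which made 5.51, 7.67 and 5.93 against 4.11, 1.10 and 3.26 normalized counts. The groups did not overlap, though the gap between them was under the worth of 1 read in HS-EVs replicate 1, and the log2 fold change was -1.03 (SE 0.49, limma adjusted p = 0.873), or -1.29 without HS-EVs replicate 1. bta-miR-323 was listed with 2, 4 and 1 reads in control-EVs and with none in HS-EVs. The limma adjusted p-value was 0.408. No fold is given, since these are few reads and the fitted value depends on the pseudocount.

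bta-miR-323 passed the study's threshold when control-EVs replicate 2 was left out (limma adjusted p = 0.217) or HS-EVs replicate 2 (adjusted p = 0.282), and its adjusted p-value ranged from 0.0529 to 0.995 over the alternatives. bta-miR-154c had 3, 5 and 2 reads in control-EVs and 3, 0 and 0 in HS-EVs, or 5.51, 3.49 and 3.95 against 12.3, 0 and 0 normalized counts. Its log2 fold change was -1.15 (SE 0.90, limma adjusted p = 0.873), and without HS-EVs replicate 1 it passed the threshold with a limma adjusted p-value of 0.241, with a range of 0.241 to 0.995 over the alternatives. That library held every HS-EVs read of bta-miR-154c. Without it the fitted log2 fold change was -2.39, a value that depends on the pseudocount.

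The remaining named members had 7 reads or fewer in any library. bta-miR-411a had 2, 2 and 3 reads in control-EVs and 3, 4 and 1 in HS-EVs, with a log2 fold change of 0.43 (SE 0.66, limma adjusted p = 0.892). For bta-miR-376b it was 0.72 (SE 0.80, adjusted p = 0.873) from 8 reads in all, and for bta-miR-411c-3p -0.27 (SE 0.85, adjusted p = 0.953) from 14. The groups overlapped in all 3. Without HS-EVs replicate 1 the values were -0.18 for bta-miR-411a, 0.0013 for bta-miR-376b and 0.40 for bta-miR-411c-3p. Near-identical copies such as the miR-376 and miR-411 identifiers can split reads between them in counting. Summed over its identifiers, miR-376 had 7.34, 4.88 and 3.95 normalized counts in control-EVs and 8.22, 3.30 and 3.26 in HS-EVs, and miR-411 had 7.34, 6.97 and 5.93 against 12.3, 5.5 and 9.78, each overlapping.

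Both arms of a hairpin were listed for 2 genes. For bta-miR-369 the 3p arm held 138 reads and the 5p arm 6, so that 95.8% of the reads were 3p, with a lowest share of 81.8% in control-EVs replicate 1. bta-miR-369-5p had 7.34, 0 and 0 normalized counts in control-EVs and 4.11, 1.10 and 0 in HS-EVs, with a log2 fold change of 0.12 (SE 0.88, limma adjusted p = 0.974), and -0.49 without HS-EVs replicate 1. The group means of bta-miR-369-5p were 2.45 in control-EVs and 1.74 in HS-EVs, against the sign of the fit to all 6 libraries. For bta-miR-411c the arms held 14 and 2 reads. At these depths a change of arm between the groups was not detectable.

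The other 19 members held 51 reads in all and no more than 4 in any library. In the 9 of them with reads in both groups, log2 fold changes ranged from -0.83 to 0.50, with 4 below 0. None of the 19 was among the 4 at an unadjusted limma p-value of 0.05 or less. Among them were bta-miR-134, which acts on LIMK1 in dendrites of neurons and had 4 reads in the series, and bta-miR-410 and bta-miR-485 with 1 read each. Of all 35, 7 members had a single read in the whole series, 7 had none in HS-EVs and 4 had none in control-EVs. A single read in HS-EVs replicate 1 was worth 4.11 normalized counts, more than the mean level of 24 of the 35 members, so a loss of these miRNAs from HS-EVs could not be told from missed detection in that library.

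**Figure D4:**
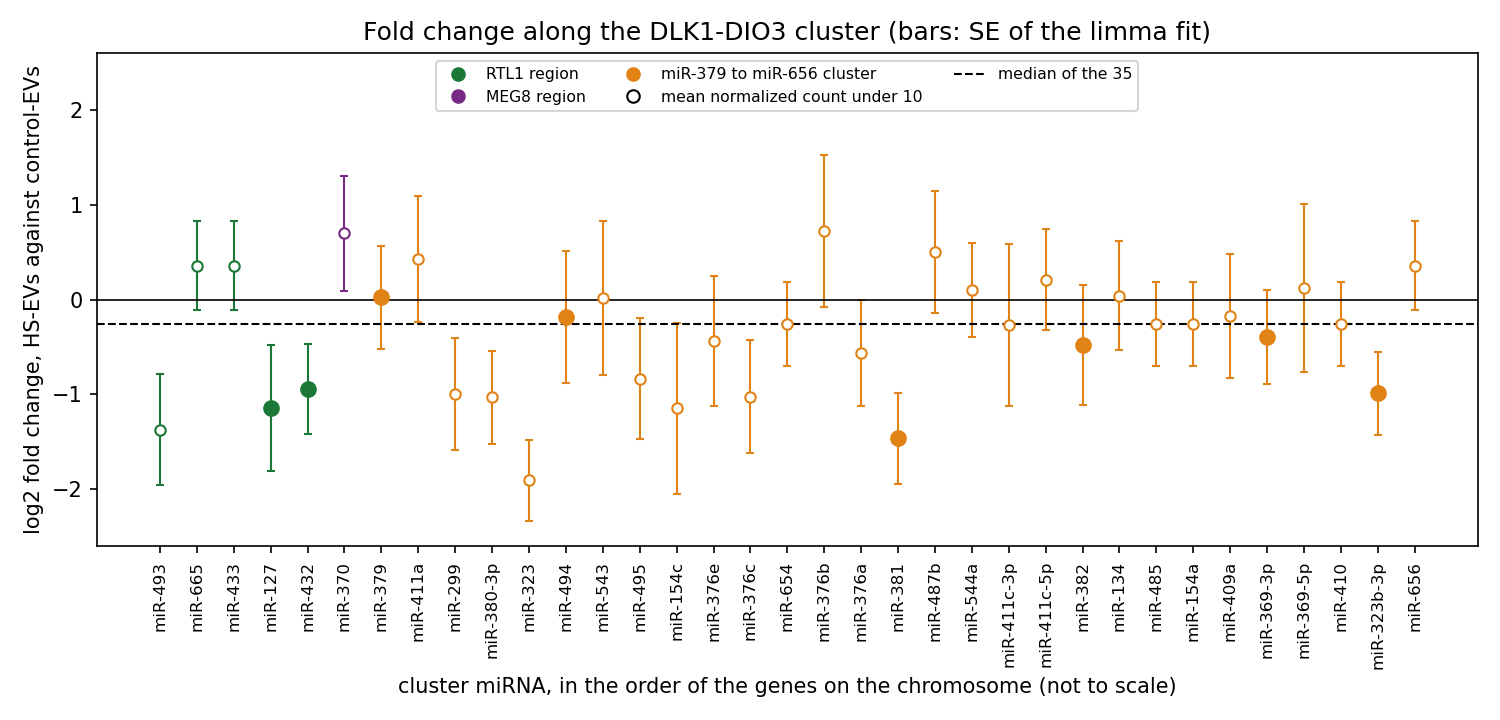
Log2 fold change of HS-EVs against control-EVs for the 35 cluster miRNAs in the order of their genes on the chromosome (not to scale), with bars for the SE of the limma fit, filled points for a mean of 10 or more normalized counts and a dashed line at the median of -0.25. Values below 0 occur at both ends of the row, from bta-miR-493 to bta-miR-323b-3p, and the 13 values above 0 lie between them and at bta-miR-656.

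By the study's criterion for detection, 10 or more normalized counts in at least 2 of the 3 libraries of a group, 8 cluster miRNAs were detected in control-EVs and 3 in HS-EVs. bta-miR-432, bta-miR-369-3p and bta-miR-494 met it in both groups. bta-miR-127, bta-miR-323b-3p, bta-miR-379, bta-miR-381 and bta-miR-382 met it in control-EVs only, and 0 in HS-EVs only. Over all 512 miRNAs, 194 met it in control-EVs and 188 in HS-EVs, with 16 in control-EVs only and 10 in HS-EVs only. The criterion does not test a difference: for bta-miR-379 and bta-miR-382, HS-EVs replicate 1 was above all or all but 1 of the control libraries. Of the 35 cluster miRNAs, 22.9% had a mean of 10 or more normalized counts, against 38.3% of all 512.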

How the data were processed

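The authors trimmed reads with cutadapt 1.11, collapsed reads that shared a unique molecular identifier (UMI), mapped them with Bowtie2 2.2.2 to the bovine genome (UMD3.1) and to miRBase, and normalized them with TMM factors (trimmed mean of M-values) in edgeR. The paper gives miRBase release 22 in its methods and another release in a supplement. The authors deposited normalized read counts, 1 per miRNA in each library, a signal at or above 0. Within each library 100% of the deposited values were whole multiples (within 0.01) of the smallest nonzero value, which was taken as 1 read, so that reads could be recovered. UMI collapsing makes them captured molecules only as far as it worked.

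Every miRNA was tested with limma 3.58.1 (R 4.3.3) on log2(normalized count + 1). No filter or block was used, and Benjamini-Hochberg adjustment was over all 512. The log2 fold change of a miRNA with few reads depends on the added 1. It compares means of logs, so it can differ from the ratio of the group means in size and in sign. All 6 libraries entered the fit. limma's p-values rest on the spread between the 3 libraries of a group, with each miRNA's variance drawn toward a value shared by all 512. Alternatives on the recovered reads were edgeR 4.0.16 (quasi-likelihood) and DESeq2 1.42.0, beside other pseudocounts, scalings, a filter, a mean-variance trend, a replicate block and leaving out each library. The 2 scalings with the worth of a read kept as deposited, and leaving bta-miR-432 out of the members, were chosen after the data had been seen. The fit was tested on simulated data.

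The members and lists were chosen with earlier results of these data known. Named are the 15 members with the highest mean, those with an unadjusted p-value of 0.05 or less, those with 10 or more reads in a library whose groups do not overlap, and bta-miR-432. The other members named by their read counts were picked after their values were seen. No test over the list was made. Gene names and neighbours are from RefSeq (ARS-UCD2.0), which is not the authors' build, so no positions are given. Mature sequences were not used here.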

Additional observations from a re-analysis of the deposited data

How the results depend on the processing

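The count of cluster miRNAs past the study's threshold was 0 and became 1 with a pseudocount of 0.5 and with scaling by reads outside bta-miR-1246, in both cases bta-miR-323 (7 reads in all), but stayed at 0 under that scaling with the worth of a read kept as deposited, and ranged from 0 to 1 over the libraries left out. The count lower in HS-EVs at an unadjusted p-value of 0.05 or less was 4 in limma (11 of all miRNAs) and became 2 with scaling by reads outside bta-miR-1246 (7 of all, or 2 and 8 with the worth of a read kept as deposited), 2 with limma's trend (7 of all), 2 with edgeR (6), 1 with DESeq2 (4), 3 with a pseudocount of 0.5 (10) and 3 under the filter (3). It was 5 with pseudocounts of 5 and 10 (12 and 10 of all), 6 with scaling by all reads (17) and 6 with DESeq2's size factors (14), and ranged from 3 to 6 over the libraries left out (10 to 23 of all). The count higher at that level was 0 in each setting run. Whether replicate numbers pair the libraries is not known. Between the control and HS-EVs libraries that share a number, deviations correlated at 0.141, 0.141 and 0.0787 for replicates 1, 2 and 3. Libraries with different numbers were not compared, so these values cannot decide it. With a replicate block in the fit, the count lower at that level was 2 (13 of all) and the gap in medians was -0.262. Cluster miRNAs with every HS-EVs library below every control library numbered 2 under the filter (4 of all 204) and 5 to 8 over the libraries left out (4.49% to 9.57% of all miRNAs), and those with every HS-EVs library above every control library numbered 0 to 1 (4.3% to 11.9% of all). The cluster's median minus that of all miRNAs was -0.262, was -0.418, -0.0694 and -0.0411 with pseudocounts of 0.5, 5 and 10 and -0.133 with DESeq2's size factors, moved to -0.505 with scaling by reads outside bta-miR-1246 (which puts the median of all miRNAs at 0.10), or to -0.315 with the worth of a read kept as deposited, and to -0.735 under the filter, which 5 of its 8 members pass through control-EVs alone, and reversed to 0.0721 with scaling by all reads, with or without the worth of a read kept as deposited. It ranged from -0.405 to -0.21 over the libraries left out. The difference in share of reads ranged from -0.113 to -0.0634 percentage points over the libraries left out, was -0.0261 without bta-miR-432, and was -0.051 with all reads on miRNAs as the denominator. Of the 16 named members, these reversed their log2 fold change. Scaling by all reads moved the median of all miRNAs to -0.79, and with it bta-miR-379 was at -1.37, while bta-miR-411a at -0.74, bta-miR-376b at -0.37 and bta-miR-369-5p at -0.36 stayed above that median. bta-miR-379 was at -0.0099 with DESeq2's size factors, and bta-miR-369-5p at -0.051 and -0.049 with pseudocounts of 5 and 10, -0.56 with edgeR and -0.81 with DESeq2. Over the libraries left out the ranges were -0.49 to 0.32 for bta-miR-379, -0.78 to 0.52 for bta-miR-494, -0.18 to 0.99 for bta-miR-411a, -1.06 to 0.40 for bta-miR-411c-3p and -0.49 to 1.14 for bta-miR-369-5p. bta-miR-323 passed the threshold in 4 alternatives and bta-miR-154c in 1, and in the other 266 pairings of a named member with an alternative the direction and the side of the threshold were as in the report. The causes were not tested. Depth limits all of this: 26 of the 35 members had under 10 reads in every library, and 13 had 3 reads or fewer in all.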

Other observations

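Other miRNAs of the same chromosome that the rule did not take, named here after their values had been seen, were read as well. bta-miR-342 had 411, 273 and 320.1 normalized counts in control-EVs and 308, 411 and 519.9 in HS-EVs, with a log2 fold change of 0.29 (SE 0.45, limma adjusted p = 0.892). bta-miR-345-3p had 159.7, 114 and 59.3 in control-EVs and 86.3, 154 and 135 in HS-EVs, with 0.24 (SE 0.52, limma adjusted p = 0.944). The groups overlapped in both. bta-miR-3957, whose gene lies within the row but whose number is not in the rule, had 0, 3 and 0 reads in control-EVs and 1, 0 and 0 in HS-EVs. bta-miR-1247-5p, beside DIO3, had 3 reads, all in control-EVs replicate 2.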
